A study of Mus musculus with 2 samples.

Results

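The genes examined were 9 regulators of the primitive streak and of the mesoderm that leaves it: T, Mixl1, Gsc, Evx1, Mesp1, Mesp2, Tbx6, Msgn1 and Myf5. They form a named list, out of 22238 protein-coding gene symbols in the mm9 annotation used, and all POU5F1 peaks whose centre lay within 50 kb of one of their transcript starts were collected. POU5F1, also called OCT4, is the POU-domain transcription factor that sustains pluripotency. Its binding was measured by chromatin immunoprecipitation and sequencing (ChIP-seq) in E14TG2a.4, a male embryonic stem cell line of the 129/Ola mouse strain, with no treatment or genotype contrast. There is 1 group with 2 biological replicates, each from its own biosample of this single line, so no comparison between conditions can be made and no test between groups was run. A peak has a single value in each list with no replicate error, and in a bulk sample a lower signal in every cell and binding in fewer cells cannot be told apart. Expression of the 9 genes was not measured in the files used, and the control experiment that the labels point to was not used here.

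The primitive streak is the region of the early embryo through which epiblast cells move as they become mesoderm and endoderm. T (brachyury), a T-box factor, and Mixl1, Gsc (goosecoid) and Evx1, homeobox factors, mark the streak. Mesp1 and Mesp2 are neighbouring genes for basic helix-loop-helix factors of early mesoderm, the first known for the heart lineage and the second for somite segmentation. Tbx6, a T-box factor, and Msgn1, a helix-loop-helix factor, act in the presomitic mesoderm, and Myf5 is a myogenic factor that starts the skeletal muscle programme in somites. Undifferentiated stem cells are generally regarded as a stage before these genes are active, and POU5F1 is known to bind near developmental genes at that stage.

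Of the 9 genes, 5 had a peak of the whole-series mm9 list within 50 kb, where 27.3% of all protein-coding genes did. These 5 were T, Gsc, Mesp1, Mesp2 and Myf5, and they were served by 4 distinct peaks, because Mesp1 and Mesp2 shared a peak. Mixl1, Evx1, Tbx6 and Msgn1 had none. The farthest counted distance was 24784 bp, from Mesp1, and the closest peak left out lay 70181 bp from Evx1. All 4 peaks lay between annotated genes, and for Mesp1 alone among the 5 genes another coding gene, Mesp2, had the transcript start nearest to the peak.

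The central 201 bases of the 4 peaks are shown because they are the called peaks that the count of genes rests on (mm9, plus strand, 5′ to 3′). Capitals mark a match to the POU octamer ATGCAAAT with 1 mismatch on either strand.
Myf5, chr10:106926119-106926319: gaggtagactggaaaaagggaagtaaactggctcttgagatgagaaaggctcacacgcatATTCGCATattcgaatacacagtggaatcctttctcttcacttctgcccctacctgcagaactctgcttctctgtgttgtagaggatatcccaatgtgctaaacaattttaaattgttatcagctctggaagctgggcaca
Mesp1 and Mesp2, chr7:86963358-86963558: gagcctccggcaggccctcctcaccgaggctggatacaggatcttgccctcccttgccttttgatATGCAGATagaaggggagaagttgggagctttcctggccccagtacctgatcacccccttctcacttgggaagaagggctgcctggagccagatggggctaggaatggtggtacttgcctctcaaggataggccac
Gsc, chr12:105691195-105691395: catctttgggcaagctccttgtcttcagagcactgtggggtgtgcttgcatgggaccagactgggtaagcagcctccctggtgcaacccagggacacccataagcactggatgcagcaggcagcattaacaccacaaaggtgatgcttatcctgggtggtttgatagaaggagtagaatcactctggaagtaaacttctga
T, chr17:8622916-8623116: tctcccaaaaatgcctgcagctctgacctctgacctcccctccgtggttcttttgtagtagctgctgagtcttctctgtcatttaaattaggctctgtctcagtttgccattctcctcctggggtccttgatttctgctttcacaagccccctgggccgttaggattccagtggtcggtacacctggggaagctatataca
The Myf5 peak held the near match ATTCGCAT, as read on the plus strand for an octamer on the minus strand, at -36 bp from the peak centre. The peak of Mesp1 and Mesp2 held ATGCAGAT on the plus strand, at -31 bp. The Gsc peak held ATTTACAT for an octamer on the minus strand, at -160 bp and so outside the bases shown. The T peak held no match with up to 1 mismatch. Such near matches were frequent, since 61.4% of all 5515 whole-series peaks held at least 1.

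None of the 4 peaks held the exact octamer, which 15.0% of the 5515 whole-series peaks held. None held the composite element, made of CATTGT for a SOX protein, 1 free base and ATGCAAAT for the POU protein, with up to 2 mismatches. That element was present in 13.4% of all peaks. With 3 mismatches allowed, 41.7% of all peaks and again 0 of the 4 held it. The MORE palindrome, ATGCAT repeated without a gap and bound by POU dimers, was present in 0.308% of all peaks and in 0 of the 4. Sites for partners known at streak genes were sought on both strands over the whole peak. The TCF/LEF site CTTTGAT, the end point of Wnt signalling, was found in the Myf5 peak, 210 bp after its centre (chr10:106926426-106926432, minus strand), and in 7.63% of all peaks. The T-box site AGGTGTGA, the FOXH1 site AATCCACA and the SOX site CATTGTT were in 0 of the 4 peaks and in 2.50%, 1.85% and 9.30% of all peaks. A SOX site match and a composite match can overlap. These are matches of letters only. The GC content of the peaks of Myf5, T, Gsc and of Mesp1 and Mesp2 was 45.4%, 51.0%, 51.7% and 57.8%, against a median of 46.0% over all peaks.

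**Figure D1:**
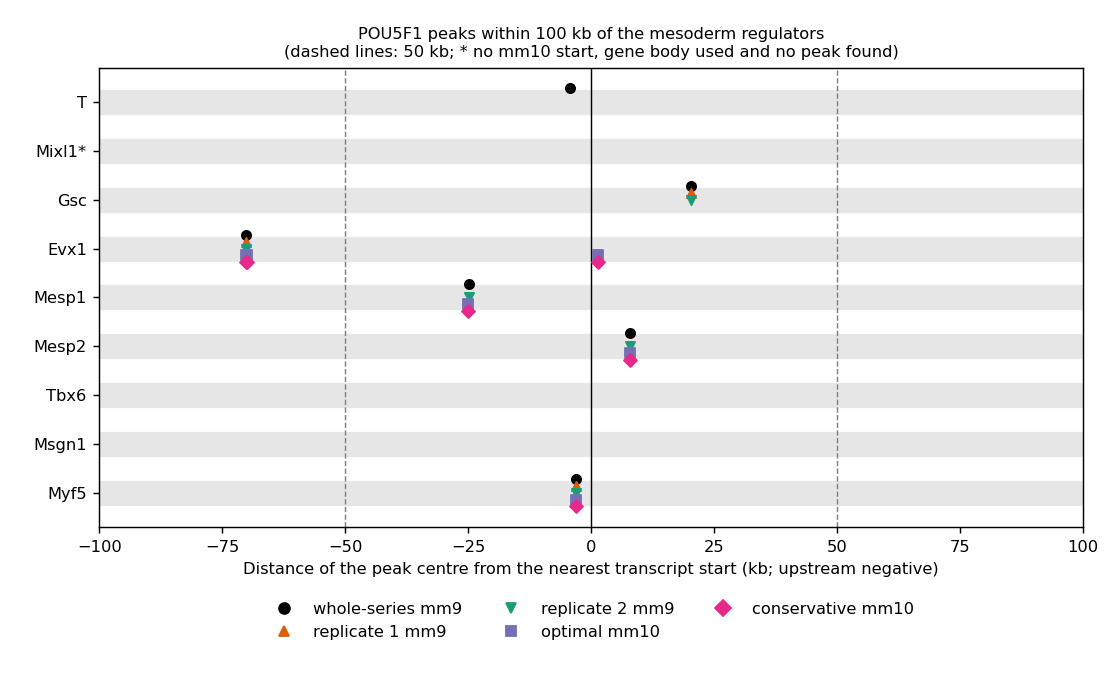
Position of every POU5F1 peak within 100 kb of the 9 genes, as the distance in kb of the peak centre from the nearest transcript start, with upstream negative, 1 marker per peak and list. Myf5 has a peak 3.0 kb upstream in all 5 lists, Mesp1 and Mesp2 have their shared peak in 4, T in 1, and Mixl1, Tbx6 and Msgn1 have no marker.

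Myf5 carried the strongest peak of the 9 genes. It lay at chr10:106925990-106926449 in mm9, centred 3029 bp upstream of the Myf5 transcript start and 5566 bp downstream of the start of Myf6, another myogenic factor gene next to it. The deposited signal, whose scale is not stated and which is comparable only within a list, was 10.57 in the whole-series list, 8.71 in the list of replicate 1 and 19.65 in that of replicate 2. These values ranked 319 of 5515, 264 of 1330 and 214 of 6324, which is 5.78%, 19.8% and 3.38% of the way down each list. Peaks of equal signal share the best rank of the tie, and 28, 71 and 34 peaks of these lists had these signals. For scale, the strongest peak of Pou5f1 itself in that list had a signal of 27.9 and rank 4. The deposited −log10 p of the Myf5 peak was 41.9 in the whole-series list, 15.7 in replicate 1 and 43.7 in replicate 2. On mm10 an irreproducible discovery rate procedure, which selects peaks by how consistently they rank between replicates, gave an optimal and a stricter conservative list. The ranks given here are by deposited signal in every list. The optimal list held a peak 3023 bp upstream of the Myf5 start (chr10:107489104-107489210), with signal 105.0 and rank 196 of 3994. The conservative list held the same interval, also at rank 196, of 2676. In the relaxed lists, which hold 300000 peaks and background entries per replicate, the entry over this peak ranked 297 in replicate 1 and 201 in replicate 2. The site was thus present in both replicates on both builds. Relative to list length, its rank was lowest in the mm9 list of replicate 1, the shortest list.

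The shared peak of Mesp1 and Mesp2 was the next in strength. It lay at chr7:86963244-86963672 in mm9, 7845 bp downstream of the Mesp2 start, beyond the end of that gene, and 24784 bp upstream of the Mesp1 start. Anpep, an aminopeptidase gene, also had a start within 50 kb, at 23780 bp. The signal was 6.75 in the whole-series list (rank 1402 of 5515, 184 peaks with that value) and 9.83 in the list of replicate 2 (rank 1996 of 6324). The mm9 list of replicate 1 held no peak there: the closest one to Mesp2 lay 411 kb away. On mm10 the optimal peak at chr7:79818372-79818707, 7812 bp downstream of the Mesp2 start, had signal 49.29 and rank 1135 of 3994, and it was in the conservative list at rank 1097 of 2676. Its entries in the relaxed lists ranked 1433 in replicate 1 and 1433 in replicate 2. Coordinates were not converted between builds, and the mm9 and mm10 peaks are related here only by their distance from the gene.

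Gsc, known for its role in the organizer at the front of the streak, had a weaker peak at chr12:105691120-105691471, 20242 bp downstream of its start and past the end of the gene. Its signal was 4.99 in the whole-series list (rank 3324), 5.6 in replicate 1 (rank 1132 of 1330) and 6.8 in replicate 2 (rank 4994 of 6324). These signals were shared by 413, 102 and 666 peaks of the lists. The deposited q-values were 0.0008, 0.0168 and 0.0658. All 3 mm9 lists held it, near the end of both replicate lists. Neither mm10 list of thresholded peaks held a peak within 50 kb of Gsc, the closest being 291 kb away. In the relaxed mm10 lists the best entry within 50 kb ranked 34071 in replicate 1, at 37.6 kb downstream, and 7358 in replicate 2, at 1.34 kb upstream, so the replicates placed their best entries at different sites.

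T had the weakest peak. It lay at chr17:8622844-8623188, 4272 bp upstream of the T start, and T was the only coding gene with a start within 50 kb of it. The signal of 3.30 ranked 5486 of 5515, with −log10 p 5.85 where the lowest value in the mm9 lists was 5, and with q-value 0.0062. Neither replicate list held it, as was true of 12.5% of all whole-series peaks. The closest peaks to T in the mm9 lists of replicates 1 and 2 lay 1145 kb and 782 kb away, and in the mm10 optimal list 634 kb. In the relaxed mm10 list of replicate 2, the best entry was 4.25 kb upstream of T, at rank 4673, while the best of replicate 1 was 30.4 kb upstream, at rank 9040. In the pooled relaxed list the best entry lay 669 bp downstream of the start, at rank 5125.

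**Figure D2:**
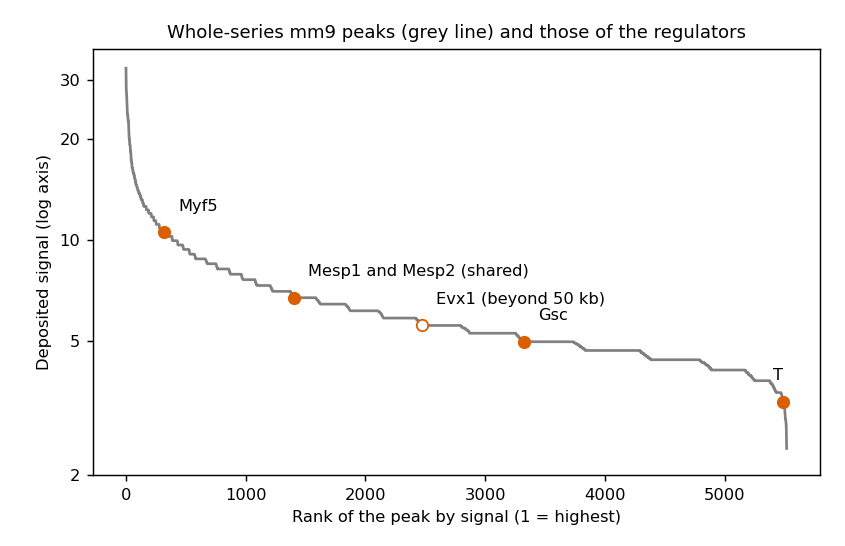
Deposited signal (log axis) of the 5515 whole-series mm9 peaks in order of rank, as a grey line, with the peaks of the 9 genes as circles, filled within 50 kb. Myf5 sits at rank 319 with signal 10.57 and T at rank 5486 with signal 3.30, with the shared peak of Mesp1 and Mesp2 and that of Gsc between them.

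Evx1, a gene of the posterior streak at the end of the Hoxa cluster, differed between the mm9 and the mm10 lists. On mm9 no list held a peak within 50 kb. On mm10 the optimal list held a peak at chr6:52314645-52314980, 1314 bp downstream of the Evx1 start and inside the annotated gene, with signal 24.6 and rank 3607 of 3994. The conservative list held it too, at rank 2498 of 2676. Its entries in the relaxed lists ranked 7970 in replicate 1 and 4954 in replicate 2, both beyond the 3994 that equal the length of the optimal list. The next peaks lay outside the window, in the Hoxa cluster. On mm9 the peak at chr6:52193126-52193496 was 70181 bp upstream of Evx1, in an exon of Hoxa11, and 2.46 kb from the start of Hoxa10. Its signals were 5.58 in the whole-series list, 6.22 in replicate 1 and 8.31 in replicate 2. The deposited q-values were 0.1789 in replicate 1 and 0.0016 in replicate 2. In replicate 1 the −log10 p of 5.236 was close to the lowest value in the mm9 lists, 5. The optimal list held 2 overlapping entries at about that distance, centred at -70118 and -69916 bp from the Evx1 start. A single entry in the relaxed list of replicate 1, at rank 478, overlapped both. In that of replicate 2 they overlapped separate entries, at ranks 11462 and 10238. The entry at rank 10238 (chr6:52243731-52244034) met only the edge of the optimal interval chr6:52243415-52243750. These were the widest gaps in rank between the replicates among the 5 optimal peaks within 100 kb of the 9 genes.

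Mixl1, Tbx6 and Msgn1 had no thresholded peak within 100 kb on either build. The closest whole-series peak to Mixl1 lay 192 kb upstream, with signal 11.16 and rank 253, and was nearest to Lefty2, an inhibitor of Nodal signalling, 4.27 kb from it. For Tbx6, which has 7 other coding genes within 50 kb, the closest was 332 kb downstream, with signal 14.98 and rank 79, and was nearest to Qprt at 8.13 kb. For Msgn1 the closest was 654 kb away, with signal 3.82. In the relaxed mm10 lists the best entry within 50 kb of Tbx6 ranked 5904 in replicate 1 and 24554 in replicate 2. For Msgn1 these ranks were 16029 and 14214. Mixl1 has no start in the RefSeq promoter table, so its mm10 distances were taken from the gene body, and its best entries within 50 kb ranked 31309 and 33615. The relaxed lists include background, with a median of 16.0 (replicate 1) or 17.0 (replicate 2) entries within 50 kb of a gene, and these entries overlap no thresholded peak.

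The lists differed in how many of the 9 genes they reached. The list of replicate 1 held a peak within 50 kb of 2 of the 9 genes, Gsc and Myf5, where 8.15% of all genes had a peak. That of replicate 2 held a peak near 4, Gsc, Mesp1, Mesp2 and Myf5, where 30.1% of all genes had a peak. Of the 4 whole-series peaks, 2 were in the list of replicate 1, which held 22.7% of all whole-series peaks, and 3 were in that of replicate 2, which held 86.7%. On mm10, a start was known for 8 of the 9 genes. The optimal list reached 4 of them, Evx1, Mesp1, Mesp2 and Myf5, against 18.9% of 17492 genes with a start. The conservative list reached the same 4, against 13.3%. With 100 kb in place of 50 kb, the whole-series list reached 6 of the 9, against 43.3% of all genes, Evx1 being the gene added. Only Myf5 was near a peak in all 5 lists, while Mesp1 and Mesp2 were near their shared peak in 4 of the 5. T and Gsc were reached on mm9 only, and Evx1 on mm10 only. No test was run on these shares, since the genes form a named list and Mesp1 and Mesp2 share a peak.

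**Figure D3:**
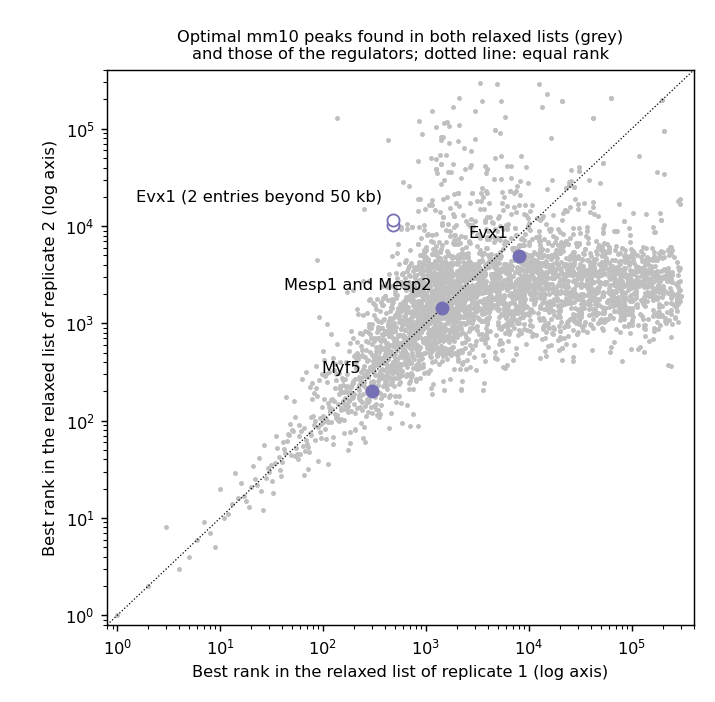
Best rank of each optimal mm10 peak in the relaxed list of replicate 1 (horizontal) and replicate 2 (vertical), both log axes, for peaks found in both (grey points), with the peaks near the 9 genes as circles, filled within 50 kb. Myf5 lies at ranks 297 and 201, Mesp1 and Mesp2 at 1433 and 1433, and Evx1 at 7970 and 4954.

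Of the 3 optimal peaks within 50 kb of these genes, 2 were among the 3994 highest entries of both relaxed lists, as were 43.1% of all optimal peaks. These were the peaks of Myf5 and of Mesp1 and Mesp2. Set against every gene with a known start, the best entry near Myf5 was matched or exceeded by the best entry of 1.68% of genes in replicate 1 and 1.14% in replicate 2. For Mesp1 and for Mesp2 these shares were 7.90% and 7.56%. For T they were 39.1% and 21.6%, for Evx1 36.1% and 22.7%, and for Gsc 74.2% and 31.9%. For Tbx6 they were 28.4% and 66.5%, and for Msgn1 54.5% and 51.1%. The shares of Gsc and Tbx6 lay far apart between the replicates, in opposite directions. Gene density and the size of each window are not corrected for in these shares.

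Other genes of the same pathways, grouped by role, were read from the whole-series list. Of 63 such genes, 29 had a peak within 50 kb (46.0%), on 28 distinct peaks, against 27.3% of all coding genes. A mm10 start was known for 41 of them, of which 16 were near an optimal peak, against 18.9% of all genes with a start. The median signal of their strongest peaks was 6.75, against 5.87 over all coding genes near a peak. Among streak signals, ligands and their modulators, 7 of 12 were near a peak. Gdf3 at signal 12.33 (1.48 kb from its start), Nodal at 9.98 (1.91 kb), Fgf4 at 9.10 (27.4 kb) and Wnt5a at 7.52 (1.57 kb) led. The Fgf4 peak lay nearest to Fgf15. Wnt3, Wnt3a, Fgf8, Bmp4 and Fst had none. Gdf3 and Nodal are TGF-beta family ligands that are already used in pluripotent cells. Among streak and axial transcription factors, 8 of 12 were near a peak. The strongest were Cdx4 at 12.04 (20.5 kb), Hhex at 11.75 (32.6 kb), Hoxb1 at 7.34 (0.224 kb) and Cdx1 at 6.46 (1.23 kb). The Cdx4 peak lay nearest to Chic1. Eomes, Lhx1, Foxa2 and Sp5, which are used in the streak beside T and Mixl1, had none.

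Among presomitic and somite genes, 7 of 17 were near a peak, led by Fgf17 at signal 12.63 (19.0 kb from its start). The Notch ligand gene Dll1 at 10.87 (3.90 kb), the Notch modifier Lfng at 9.69 (4.73 kb) and Hes7 at 8.52 (46.8 kb) followed. The peaks of Fgf17 and Hes7 lay nearest to Epb4.9 and Tmem107. Among skeletal muscle regulators 4 of 8 were near a peak, and the peak of Myf6 was that of Myf5. Eya2 had a peak of signal 6.17 at 41.0 kb, while the myogenic factor genes Myod1 and Myog had none. Among cardiac, lateral and blood mesoderm genes 3 of 14 were near a peak. These were Gata4 at 6.17 (41.8 kb), Etv2 at 4.11 (1.46 kb) and Tbx20 at 3.82 (44.4 kb), and the Gata4 peak lay nearest to Fdft1. The share of 21.4% for these 14 genes is near the 27.3% of all genes. The replicate 1 list, which reached 8.15% of all genes, reached 0 of these 14. It reached 3 of 12 streak signals, 4 of 12 streak and axial factors, 4 of 17 somite genes and 4 of 8 muscle genes. The optimal mm10 list reached 18.9% of all genes with a known start. Of the genes with a known start, it reached 3 of 7 streak signals, 5 of 11 streak and axial factors and 4 of 11 somite genes. It also reached 1 of 3 muscle genes and 3 of 9 cardiac, lateral and blood genes. Differences between the roles were not tested.

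**Figure D4:**
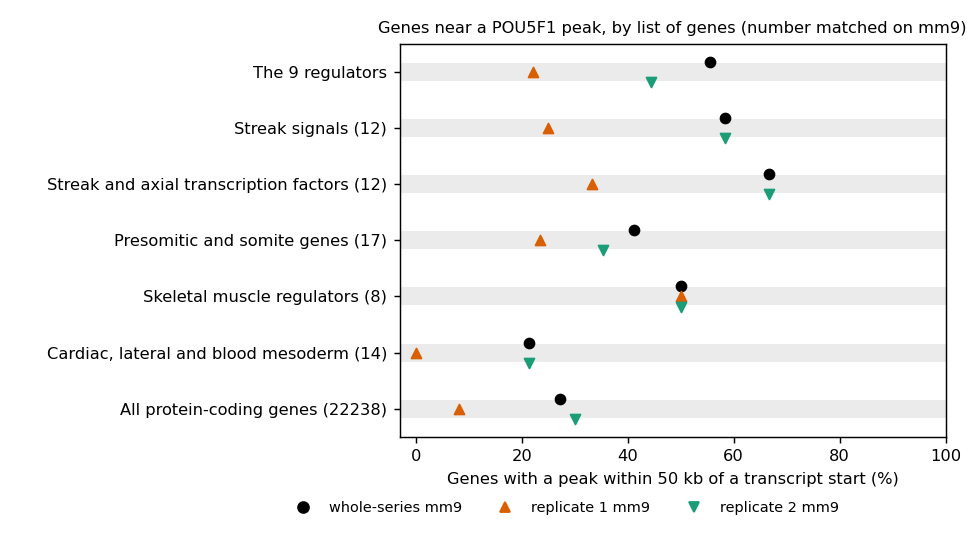
Share of genes (percent, horizontal) with a peak within 50 kb in the 3 mm9 lists, for the 9 genes, the 5 lists of related genes and all protein-coding genes, with the number of genes in brackets. In the whole-series list the 9 genes lie at 55.6%, the streak and axial factors at 66.7%, cardiac, lateral and blood mesoderm at 21.4% and all genes at 27.3%.

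The genes with the most similar signals over the 3 mm9 lists were found by the distance between log2(1 + signal) values, with absence as 0, leaving out genes near the same peak. For Myf5 they were Dynlt1a and Tmem181a, both with 10.64, 8.91 and 19.05 in the whole-series, replicate 1 and replicate 2 lists (distance 0.052). The signal 10.64 belongs to a single whole-series peak, so Dynlt1a and Tmem181a are near the same site. For Mesp1 and Mesp2 they were Blk and Ccdc56, with equal signals of 6.75 in the whole-series list and 9.83 in replicate 2 and no peak in replicate 1. For Gsc they were 1810022K09Rik and Car13, both with 4.76, 5.51 and 6.44 (distance 0.091). For T they were Tsc22d2 at 3.28 and Rxrg at 3.23, in the whole-series list alone. Signals take few distinct values in these lists, so ties between different peaks are also common.

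Read depth is not given with the lists, so a missing peak does not show that POU5F1 was absent from a site. The mm9 list of replicate 1 was the shortest, with 1330 peaks, and the part of list length in the absence of the Mesp1 and Mesp2 peak from it was not tested.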

How the data were processed

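POU5F1 ChIP-seq was carried out in 2 biological replicates of E14TG2a.4 cells. Per the labels and the descriptions deposited with each sample, the authors deposited peak lists on mm9 (replicate 1, replicate 2 and whole series) and on mm10 (relaxed lists of peaks and background, and optimal and conservative lists from an irreproducible discovery rate procedure). The aligner, the peak caller, the thresholds and the way replicates were combined are not given in the sources used here. The signal per peak is as deposited by the authors, with no stated scale, and was used only within a list. The mm9 lists deposited by the authors give −log10 p and a q-value per peak, and the mm10 lists −log10 q. Depth is unknown.

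Transcript starts on mm9 came from GENCODE M1 with the NCBIM37 genome. On mm10 they came from RefSeq promoters on GRCm38.p6, for 17492 of 21900 coding genes, Mixl1 not among them. No coordinates were converted. A gene was near a peak when a start lay within 50 kb of the peak centre, and lists were matched by 1 bp of overlap. Motifs were searched in mm9 sequence with up to 2 mismatches in the composite and 0 elsewhere. The octamer with 1 mismatch was added after seeing the data. Distances, overlaps and motif search were tested on simulated data with known answers. The members and lists were chosen with earlier results of these data known. Named genes were the 9 members, the up to 4 genes of each of 5 pathway lists with the strongest peak, the gene nearest to each peak, the 2 genes with the most similar signals, and Pou5f1. Genes without a peak, and Lefty2, Qprt, Anpep and the other neighbours, were named outside that rule. Some genes that the rule selects among the muscle regulators are not reported here. Of the 63 pathway genes, all matched the annotation, Foxf1 through an older name. Pandas 2.3.3 and Python 3.11.15 were used.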

Additional observations from a re-analysis of the deposited data

How the results depend on the processing

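No test was run, so the alternatives bear on counts. The 5 of 9 genes near a whole-series peak became 3 within 10 kb (without Gsc and Mesp1), 3 with −log10 p of at least 10 (without T and Gsc), and 2 to 4 with a single replicate's list: 4 without replicate 1 and 2 without replicate 2. The share of all coding genes moved too, from 27.3% to 8.65%, 16.6%, 30.1% and 8.15% in these settings. For replicate 1 the count of 2 became 1 within 10 kb (2.28% of all genes) and 1 with −log10 p of at least 10 (3.43%), and for replicate 2 the count of 4 became 2 within 10 kb (9.69%). The 29 pathway genes became 16 within 10 kb, and 15 to 28 with a single replicate's list, against the same shares of all genes. Both mm10 counts stayed within 3 to 4 under all alternatives run, while the share of all genes moved widely. For the optimal list that share was 5.60% within 10 kb and 31.8% within 100 kb. For the conservative list it was 3.74% and 22.9%. The number of the 4 peaks with a POU element was 0 with 1, 2 or 3 mismatches in the composite and in windows of 100 bp on each side. It was 3 with 1 mismatch in the octamer, a setting under which 62.6% of all peaks held an element, and 2 in the narrower windows, against 55.2% of all peaks. Overlaps with replicates 1 and 2 stayed at 2 and 3 of the 4 peaks under both other overlap rules. As a share of its list, the rank of the Gsc peak was 60.3% in the whole-series list, 79.0% without replicate 1 and 85.1% without replicate 2. For the Myf5 peak these shares were 5.78%, 3.38% and 19.8%. The lists hold 5515, 6324 and 1330 peaks, so the shares depend on list length as well as on rank. No paired analysis was possible because there is a single group. Counts of 9 genes and 4 peaks limit the precision of every share.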

Other observations

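Below the strongest peaks of each role, further genes of the streak and its derivatives lay near weaker whole-series peaks, and they are named here after their values were seen. Dll3, a Notch pathway gene of the somite clock, had a peak centred 0.0600 kb upstream of its start, with signal 3.82, in neither replicate list. T is the other gene of the streak and mesoderm lists whose whole-series peak had no replicate counterpart within 50 kb. Snai1, a repressor of E-cadherin during cell ingression, had a peak of signal 5.29 at 8.03 kb upstream. Cdx2, a caudal-type factor of the posterior axis, had 2 peaks within 50 kb, the stronger of signal 5.29 at 2.74 kb downstream, and was near a peak in both replicate lists. Pax7 and Pax3, paired-box factors of the dermomyotome, had signals of 5.58 each, at 4.18 kb and 31.7 kb upstream. Wnt8a, Wnt11 and Tdgf1, the last a Nodal co-receptor, had signals of 6.75, 5.58 and 5.58. Like Snai1, Pax3 and Pax7, they had a peak within 50 kb in the list of replicate 2 and none in that of replicate 1. Of all whole-series peaks, 64.8% were found in the list of replicate 2 only. The peak near Tdgf1 lay nearest to Lrrc2.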
